A study of Mus musculus with 102 samples.

Results

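The question was whether microglia of ABC-imKO mice answered intrathecal AIBP differently from microglia of wild type (WT) mice after the same cisplatin treatment. The members are all 20461 expressed genes of 53715 in the count table, and the samples are 11 of the 17 in the series. They are 3 samples labelled ABC-imKO cisplatin AIBP (7, 8 and 9), 3 ABC-imKO cisplatin saline (4, 5 and 6), 2 WT cisplatin AIBP (7 and 9) and 3 WT cisplatin saline (4, 5 and 6). Each gene was given an interaction, which is its AIBP over saline log2 fold change in ABC-imKO minus its AIBP over saline log2 fold change in WT, so a positive value means a higher response in ABC-imKO. All 4 groups had cisplatin by intraperitoneal injection on days 1 and 3 and an intrathecal injection on day 7, of AIBP or of saline. ABC-imKO mice carry Abca1fl/fl and Abcg1fl/fl with Cx3cr1-CreERT2, an inducible Cre recombinase under the promoter of a gene that other macrophages and monocytes also use. The remaining 6 samples, 3 ABC-imKO naive and 3 WT naive, had neither drug nor injection. They entered the low-count filter, the scaling and the estimate of the spread but not the interaction. Some of their levels are given below for comparison. The sources used here give no strain, age, induction of the recombinase or number of mice behind a numbered sample. A p-value therefore reflects only how far these numbered samples vary, which may be technical. Below, AIBP and saline groups are named without the word cisplatin, and WT 8 was not analysed here.

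AIBP, the apolipoprotein A-I binding protein encoded by Naxe, is known to speed the removal of cholesterol from cells. ABCA1 and ABCG1 are the membrane transporters that hand cholesterol from microglia to apolipoprotein acceptors, so microglia without them lack the exit route on which AIBP is thought to act. Cisplatin causes a painful neuropathy in which spinal microglia take on an inflammatory state, and Toll-like receptors in cholesterol-rich membrane rafts feed that state. Immediate early genes, which return below, are transcription factors and feedback regulators transcribed within minutes of a stimulus, cell dissociation included.

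Total counts of the 11 samples ran from 45.1 to 76.6 M (M, 1e6 counts; median 69.4), with 18791 to 21467 detected genes and 1.82 to 3.04% mitochondrial counts. The microglial genes P2ry12, Tmem119 and Csf1r were abundant in all 11 samples. Tmem119, a microglia-restricted surface protein, stood at 2532 to 3357 CPM (counts scaled to 1e6 per library) in the samples labelled ABC-imKO AIBP, 1620 to 2240 in ABC-imKO saline, 3982 to 4578 in WT AIBP and 2589 to 3878 in WT saline. Abca1 (chromosome 4, 53030787 to 53159895, GRCm38) stood at 65.7, 59.6 and 32.6 CPM in ABC-imKO AIBP and 98.5, 56.6 and 59.7 in ABC-imKO saline, against 41.1 and 45.6 in WT AIBP and 61.8, 76.1 and 60.4 in WT saline. Abcg1 (chromosome 17, 31057675 to 31117988) stood at 44.6, 25.6 and 59.0 CPM in ABC-imKO AIBP and 68.4, 50.9 and 54.1 in ABC-imKO saline, against 36.2 and 63.1 in WT AIBP and 42.7, 56.4 and 65.7 in WT saline. Reads from exons that Cre leaves in place are part of both totals, so neither total measures the deletion.

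Before any response is read, the samples labelled ABC-imKO AIBP stood apart from the other ABC-imKO samples in genes tied to the genotype. CreERT2 contains a ligand-binding domain of estrogen receptor 1. Esr1 (chromosome 10), chosen after its values were seen, stood at 3.23, 0.712 and 0.589 CPM in the samples labelled ABC-imKO AIBP, against 42.9, 42.3 and 62.8 in ABC-imKO saline and 43.4 to 85.6 in ABC-imKO naive. In the 8 WT samples it stood at 0.225 to 12.1 CPM. The samples labelled ABC-imKO AIBP therefore lay in the WT range of Esr1 and below the range of the other 6 ABC-imKO samples, with no overlap. Whether the Esr1 counts came from the transgene was not tested. In a pair of further genes chosen after their values were seen, these samples lay with ABC-imKO. G530011O06Rik, a noncoding gene on the X chromosome, stood at 26.1, 31.9 and 33.8 CPM in them, 17.6 to 56.3 in the other ABC-imKO samples and 100 to 281 in WT. Mid1, whose transcript overlaps that gene on the other strand, stood at 2.65 to 2.87 CPM in them and 1.95 to 6.46 in the other ABC-imKO samples, against 4.88 to 27.4 in WT. Reads of that overlapping pair cannot be told apart where counting ignored strand, so the 2 genes are not separate checks. Of 2 low genes also chosen after their values were seen, 1 went with each side. Ccl27a, a chemokine gene on chromosome 4, stood at 0.0118 to 0.0274 CPM in these samples and 0 to 1.20 in the other ABC-imKO samples, against 0.663 to 3.54 in WT. Exoc3l2, an exocyst-like gene near Apoe on chromosome 7, stood at 0.0137 to 0.306 CPM in these samples, 1.41 to 2.92 in the other ABC-imKO samples and 0.0163 to 1.44 in WT. The recombinase genotype of these 3 samples was not tested otherwise, so each response and each interaction below is that of samples as labelled, and a response to AIBP cannot be told apart from a difference in genotype between the AIBP and saline samples of ABC-imKO.

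**Figure D1:**
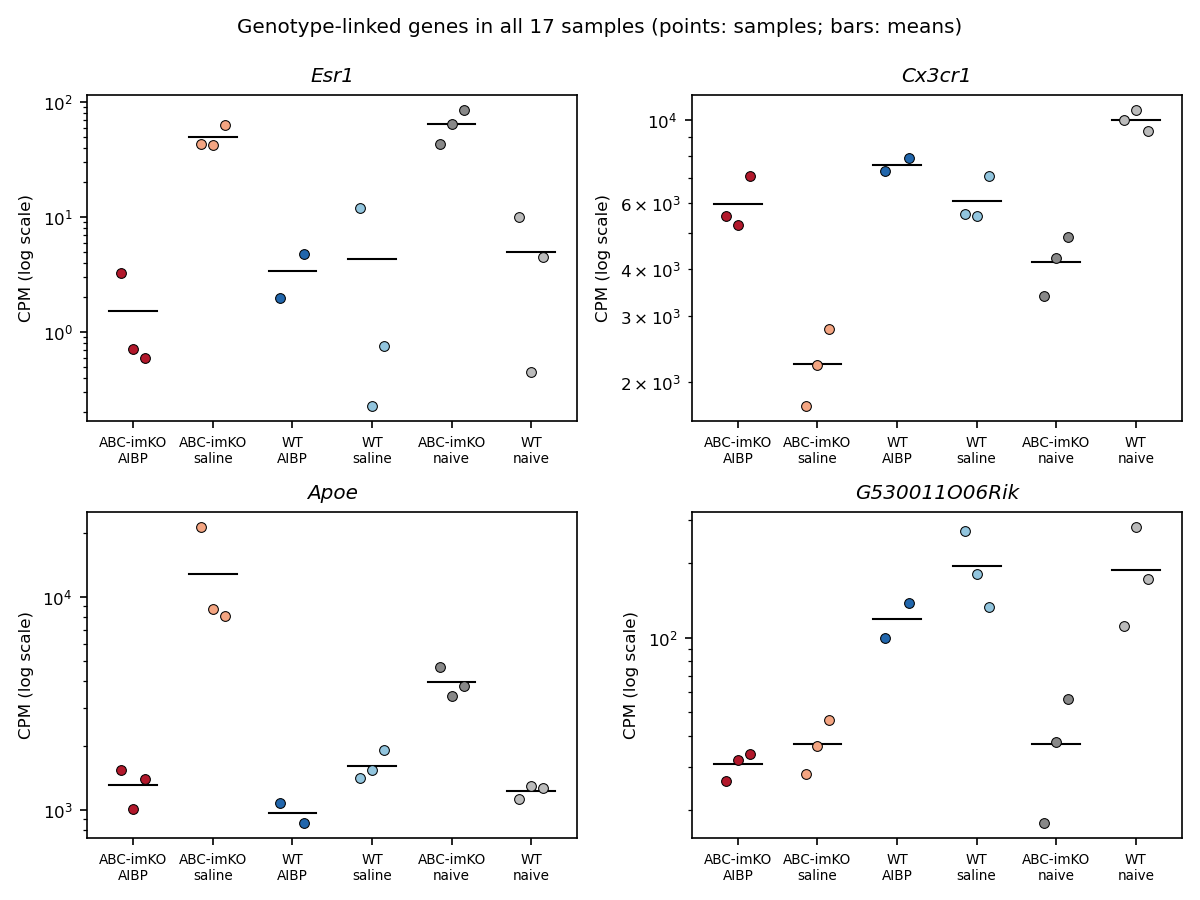
CPM on log axes of Esr1, Cx3cr1, Apoe and G530011O06Rik in all 17 samples, with points for samples and bars for group means. The 3 samples labelled ABC-imKO AIBP sit with WT for Esr1 (0.589 to 3.23 CPM) and with ABC-imKO for G530011O06Rik (26.1 to 33.8 CPM).

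Whether any gene's response differed between the genotypes past the threshold depended on the test. Of 20461 genes tested with edgeR's quasi-likelihood test and Benjamini-Hochberg adjustment, 0 interactions passed an adjusted p of 0.05 (0% of genes), and the smallest adjusted p was 0.774. An unadjusted p under 0.05 was reached by 1285 genes (6.28%), 705 with a higher interaction (3.45%) and 580 with a lower one (2.83%). DESeq2 called 136 interactions of 17454 genes (0.779%), 100 higher (0.573%) and 36 lower (0.206%). Of the 136, 33 reached 10 CPM in a group, whereas limma-voom called 0. Within ABC-imKO, AIBP against saline called 2 genes (0.00977%), Cx3cr1 and Apoe, with 1354 at an unadjusted p under 0.05 (6.62%). In WT it called 0, with 759 at an unadjusted p under 0.05 (3.71%), 336 of them higher (1.64%) and 423 lower (2.07%). DESeq2 called 104 in WT (0.531%), of which 15 were higher (0.0766%) and 89 lower (0.454%), and limma-voom called 4. Among the 9042 genes at 10 CPM or more in a group, the median interaction was -0.0043 on the log2 scale, its middle 50% ran from -0.31 to 0.32, and the median standard error was 0.48. Across those genes the ABC-imKO response and the WT response had a correlation of -0.041, and the 2 share no samples.

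**Figure D2:**
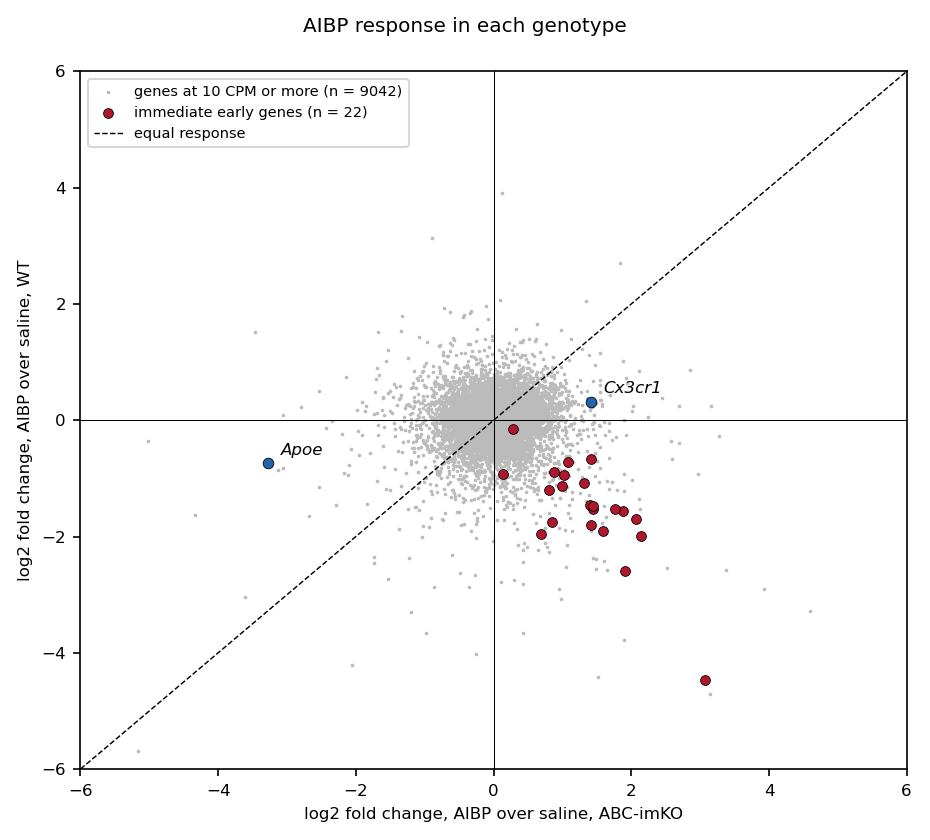
AIBP over saline log2 fold change in ABC-imKO (x) and in WT (y) for 9042 genes at 10 CPM or more and for the 22 immediate early genes, 5 genes lying outside the plotted range of 6. The immediate early genes sit in the lower right, positive in ABC-imKO and negative in WT.

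The gene with the smallest interaction p was Apoe, which encodes the apolipoprotein that carries lipid from glia. Apoe (chromosome 7, 19696109 to 19699188) stood at 1541, 1007 and 1389 CPM in the samples labelled ABC-imKO AIBP and at 21278, 8744 and 8111 in ABC-imKO saline. In WT it stood at 1073 and 862 CPM with AIBP and 1405, 1533 and 1898 with saline. Group means were 1312 ± 275 CPM in ABC-imKO AIBP and 12711 ± 7426 in ABC-imKO saline (SD, n = 3 each), against 967 ± 149 in WT AIBP (n = 2) and 1612 ± 256 in WT saline (n = 3). The ABC-imKO AIBP samples overlapped the WT samples and lay below the ABC-imKO saline and ABC-imKO naive ones, which held 3421 to 4693 CPM in naive. Apoe fell in ABC-imKO (log2 fold change -3.28 ± 0.32 (SE), adjusted p = 0.00112) and had a WT log2 fold change of -0.74 ± 0.34 (adjusted p = 0.996, edgeR). Its interaction of -2.54 ± 0.44 had an unadjusted p of 4.49e-05 and an adjusted p of 0.774 in edgeR. DESeq2 called the Apoe interaction (-2.53, adjusted p = 2.57e-05).

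The other call was Cx3cr1, the receptor for fractalkine and the locus from which the recombinase is expressed. It stood at 5551, 5250 and 7078 CPM in the samples labelled ABC-imKO AIBP and 1718, 2218 and 2771 in ABC-imKO saline, against 7297 and 7902 in WT AIBP and 5609, 5531 and 7103 in WT saline. The ABC-imKO AIBP samples lay among or just below the WT saline samples and above all 6 other ABC-imKO samples. Cx3cr1 rose in ABC-imKO (log2 fold change 1.41 ± 0.19, edgeR adjusted p = 0.0201) and its interaction was 1.09 ± 0.28 (edgeR adjusted p = 0.774). The Cx3cr1 interaction was called by DESeq2 (1.11, adjusted p = 0.0246). In a fit of the 11 cisplatin samples alone neither ABC-imKO call held, with an adjusted p of 0.0679 for Apoe and 0.183 for Cx3cr1 (edgeR). The Cx3cr1 call also missed the threshold without ABC-imKO saline 4 (edgeR adjusted p = 0.104), ABC-imKO saline 5 (0.213), ABC-imKO AIBP 7 (0.0646) or ABC-imKO AIBP 9 (0.141), or without technical replicate 1 (0.066) or 2 (0.155) of each sample, while Apoe passed each time. Naxe, the gene of AIBP itself, stood at 119 to 156 CPM in ABC-imKO AIBP, 112 to 163 in ABC-imKO saline, 207 and 208 in WT AIBP and 148 to 165 in WT saline (interaction -0.36 ± 0.25, edgeR adjusted p = 0.923).

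Immediate early genes gave the most uniform pattern among the 22 lists of microglial states and pathways. All 22 members had a positive interaction, with a median log2 value of 2.76 against 0.07 over all genes tested, and 20 of 22 had an unadjusted p under 0.05, where 3.45% of all genes did in that direction. None of the 22 passed the adjusted threshold in edgeR (adjusted p from 0.774 upward). DESeq2 called 4, Ier5, Rhob, Klf6 and Egr3, against 0.573% of its 17454 genes called higher. Of these, Egr3 was low, with a highest group mean of 7.15 CPM. The ABC-imKO response was positive in 22 of 22 (median 1.41, 10 at an unadjusted p under 0.05 against 3.39% of all genes) and the WT response was negative in 22 of 22 (median -1.50, 9 at an unadjusted p under 0.05 against 2.07%). These genes were high and low together in the same samples, so their count is not 20 separate results.

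The list's summed level was weighted toward its most abundant members, and single members such as Ier5 and Klf2 below ordered the samples otherwise. The sum was 19235, 19059 and 36449 CPM in the samples labelled ABC-imKO AIBP and 9526, 4623 and 16062 in ABC-imKO saline, against 9487 and 9377 in WT AIBP and 32932, 10774 and 18402 in WT saline. ABC-imKO saline 5 was the lowest of the 11, WT saline 4 and ABC-imKO AIBP 9 were the highest, and neither genotype's AIBP and saline samples overlapped. In the naive groups, which had no injection, the sum ran from 9413 to 41189 CPM in ABC-imKO and from 22975 to 54746 in WT, a spread within a group as wide as the differences above. These genes also answer to tissue dissociation and sorting, and the part of sample handling in the pattern was not tested. Without WT saline 4 the median was 1.99, with 14 of 22 at an unadjusted p under 0.05, and without WT AIBP 7 it was 2.94. Without WT saline 5 and 6, which leaves WT saline 4 alone, it was 3.68, with 21 of 22 interactions positive.

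Among the AP-1 subunits, Fos stood at 2290, 1767 and 4306 CPM in the samples labelled ABC-imKO AIBP and 583, 142 and 1278 in ABC-imKO saline, against 687 and 694 in WT AIBP and 4218, 633 and 1886 in WT saline. All 3 ABC-imKO AIBP samples lay above ABC-imKO saline, whereas the WT AIBP samples lay inside the range of WT saline. The interaction of Fos was 3.76 ± 1.28 (unadjusted p = 0.0104, edgeR), that of Fosb 3.45 ± 1.10, Jun 2.08 ± 0.82, Junb 1.96 ± 0.84 and Jund 2.86 ± 0.94. Egr1, a zinc finger factor switched on by growth factor and synaptic signals, stood at 2131, 2508 and 4029 CPM in ABC-imKO AIBP and 802, 228 and 1535 in ABC-imKO saline, against 757 and 737 in WT AIBP and 3820, 1119 and 1545 in WT saline. Here the WT AIBP samples lay below the WT saline ones as well, and the interaction was 3.29 ± 1.03 (unadjusted p = 0.00636, edgeR). Atf3, a stress-induced partner of AP-1, had an interaction of 4.50 ± 1.40. The 2 members whose interaction did not reach an unadjusted p under 0.05 were Fosl2 (1.07 ± 0.54) and Myc (0.44 ± 0.51), the growth regulator.

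**Figure D3:**
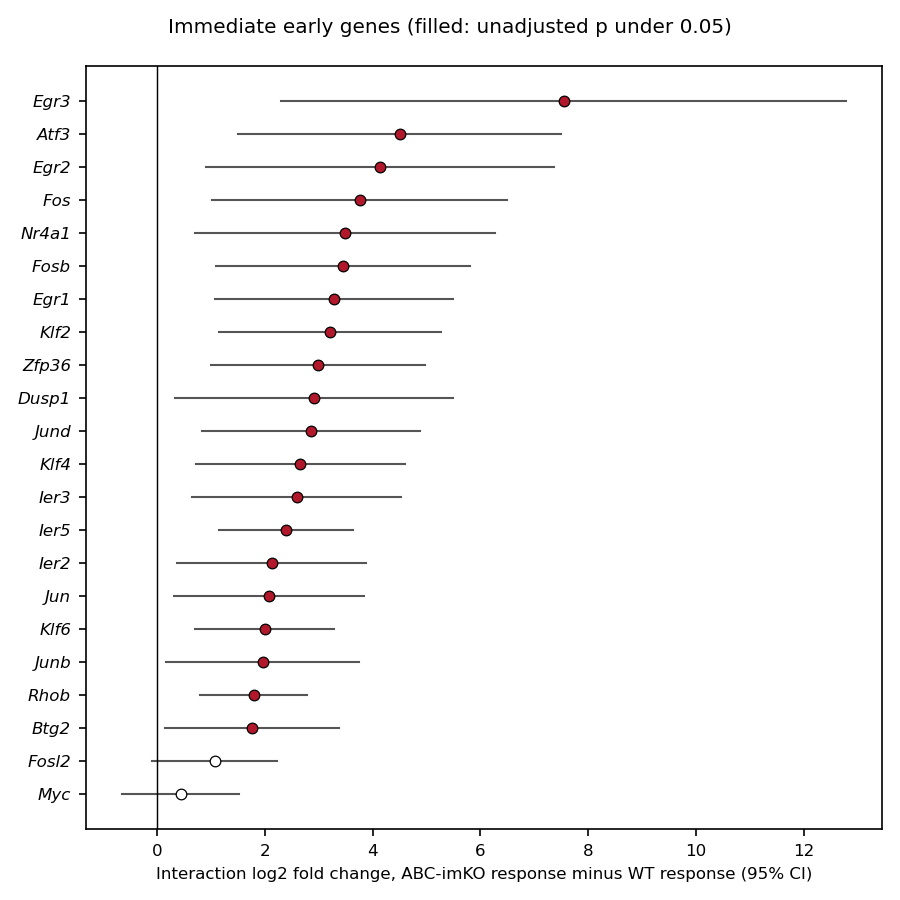
Interaction log2 fold change of each immediate early gene (points) with its 95% confidence interval (lines); filled points have an unadjusted p under 0.05 in edgeR. All 22 points lie above 0, from 0.44 for Myc to 7.54 for Egr3, and the intervals of Myc and Fosl2 reach 0. Egr3 was low, with a highest group mean of 7.15 CPM, so the size of its value is uncertain.

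Ier5, which encodes a regulator of heat shock factor 1 and had the smallest p of the list, stood at 322, 181 and 231 CPM in the samples labelled ABC-imKO AIBP and 76.1, 63.3 and 157 in ABC-imKO saline, against 106 and 110 in WT AIBP and 369, 115 and 202 in WT saline. AIBP and saline samples did not overlap in either genotype, with ABC-imKO AIBP above its saline samples and WT AIBP below its own. Of the 9042 genes at 10 CPM or more, 46 (0.509%) were arranged so, and 57 (0.63%) in reverse. The Ier5 log2 fold change was 1.31 ± 0.38 in ABC-imKO and -1.08 ± 0.44 in WT, with an interaction of 2.39 ± 0.58 (unadjusted p = 0.000995, adjusted p = 0.774, edgeR). The same arrangement held for Klf2, a quiescence factor of endothelial and immune cells, at 531, 386 and 498 CPM in ABC-imKO AIBP and 77.5, 117 and 336 in ABC-imKO saline, against 96.4 and 85.9 in WT AIBP and 617, 109 and 225 in WT saline. Its interaction was 3.21 ± 0.96 (unadjusted p = 0.00465, edgeR). Rhob, a small GTPase of endosomes, had an interaction of 1.80 ± 0.47, at 470 to 626 CPM in ABC-imKO AIBP and 200 to 344 in ABC-imKO saline, against 290 and 288 in WT AIBP and 706, 251 and 466 in WT saline.

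Among feedback regulators of the same list, Dusp1 is the phosphatase that switches off p38 and JNK kinases. It stood at 1755, 1223 and 3697 CPM in the samples labelled ABC-imKO AIBP and 658, 208 and 1595 in ABC-imKO saline, against 656 and 639 in WT AIBP and 3304, 712 and 1370 in WT saline. Its ABC-imKO groups overlapped, because ABC-imKO saline 6 lay above ABC-imKO AIBP 8, and the interaction was 2.91 ± 1.21 (unadjusted p = 0.0295, edgeR). Zfp36, which encodes tristetraprolin, a protein that destabilises cytokine messenger RNA, stood at 1383, 1057 and 2652 CPM in ABC-imKO AIBP and 426, 299 and 1137 in ABC-imKO saline, against 463 and 501 in WT AIBP and 2339, 689 and 1152 in WT saline (interaction 2.98 ± 0.93, unadjusted p = 0.00609, edgeR). Its ABC-imKO groups overlapped in the same pair of samples, and its WT AIBP samples lay below WT saline. Btg2, an antiproliferative gene that is also a p53 target, had an interaction of 1.77 ± 0.76. Dusp2, a nuclear phosphatase of the same family as Dusp1, was outside the list and stood at 12.2, 19.5 and 21.9 CPM in ABC-imKO AIBP and 2.03, 2.80 and 14.4 in ABC-imKO saline, against 2.30 and 1.85 in WT AIBP and 19.7, 7.99 and 8.96 in WT saline. Its interaction was 4.04 ± 1.04 (unadjusted p = 0.00153, edgeR).

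Immediate early genes are classically induced through promoter elements such as the 2 marked here. The feedback genes Dusp1, Btg2 and Zfp36 are shown because their windows hold a match. Whether these elements bear on the values above was not tested. Windows of 300 bases, from 250 before to 50 after the start site, were taken from RefSeq on GRCm38.p6, each on the minus strand and written 5′ to 3′ in the sense of the gene. Capitals mark a cyclic AMP response element (CRE, TGACGTCA, a palindrome) in Dusp1 and Btg2 and a CArG box, the core of the serum response element, in Zfp36.
Dusp1, chr17:26508423-26508722: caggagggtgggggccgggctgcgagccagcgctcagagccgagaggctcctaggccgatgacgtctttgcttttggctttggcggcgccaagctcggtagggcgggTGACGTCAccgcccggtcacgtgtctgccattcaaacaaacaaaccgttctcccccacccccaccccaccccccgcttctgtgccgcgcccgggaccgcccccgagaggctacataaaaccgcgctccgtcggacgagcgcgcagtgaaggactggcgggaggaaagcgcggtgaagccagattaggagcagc
Btg2, chr1:134079106-134079405: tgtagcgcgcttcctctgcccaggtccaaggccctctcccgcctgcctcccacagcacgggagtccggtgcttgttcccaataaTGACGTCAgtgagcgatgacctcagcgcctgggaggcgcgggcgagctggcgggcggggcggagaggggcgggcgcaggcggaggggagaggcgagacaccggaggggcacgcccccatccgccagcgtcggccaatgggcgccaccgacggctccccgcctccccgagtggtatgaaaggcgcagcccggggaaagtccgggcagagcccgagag
Zfp36, chr7:28379179-28379478: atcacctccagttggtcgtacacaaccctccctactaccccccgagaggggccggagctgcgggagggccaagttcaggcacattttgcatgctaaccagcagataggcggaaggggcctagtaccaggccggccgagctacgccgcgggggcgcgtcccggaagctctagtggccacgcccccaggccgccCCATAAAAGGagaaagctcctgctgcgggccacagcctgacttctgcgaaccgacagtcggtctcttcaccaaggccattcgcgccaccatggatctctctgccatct
The element starts 143 bases upstream of the start site in Dusp1, 166 in Btg2 and 58 in Zfp36. Of the 22 immediate early genes 18 had a window, and the CRE was found in 2 of them (Btg2 and Dusp1) against 2.03% of 27025 genes. The CArG box, searched on both strands, was found in 2 (Egr2 and Zfp36) against 1.81%. A match in such a window is a description of its letters and shows no binding.

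Secreted inflammatory signals came next. Of 30 tested cytokine and chemokine genes, 12 had a higher interaction at an unadjusted p under 0.05 and 1 a lower one, where 3.45% and 2.83% of all genes did, and none passed the adjusted threshold in edgeR. DESeq2 called 5, which were Cxcl1, Ccl3, Osm, Tnf and Ccl24, against 0.573% of its 17454 genes called higher. The lower one, Nos2, and 2 of the higher ones, Cxcl1 and Il12b, had under 5 CPM in each of the 11 samples and groups at or near 0, so no fold is given for them. The list's median interaction was 1.25, from a median of 0.75 in ABC-imKO and -0.90 in WT, and over the 27 members with counts in each group it was 1.26. Without WT AIBP 7 the median was 2.08, and without technical replicate 1 of each sample it was 2.16. WT saline 5 and 6 also held 95.3 and 62.8 CPM of Ccr2, the monocyte chemokine receptor, against at most 10.2 in the other 9 samples. Without both the median was 0.95, with 8 members at an unadjusted p under 0.05, and the part of monocytes in this list was not tested further.

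Ccl3, a chemokine that draws monocytes and neutrophils, stood at 331, 303 and 504 CPM in the samples labelled ABC-imKO AIBP and 106, 36.7 and 229 in ABC-imKO saline, against 111 and 131 in WT AIBP and 387, 296 and 330 in WT saline. Its groups did not overlap in either genotype, in opposite directions, as in 0.509% of genes at 10 CPM or more. The interaction of Ccl3 was 3.09 ± 0.90 (unadjusted p = 0.00377, edgeR). Ccl4, its neighbour on chromosome 11, stood at 360, 624 and 769 CPM in ABC-imKO AIBP and 74.5, 22.1 and 306 in ABC-imKO saline, against 208 and 220 in WT AIBP and 779, 539 and 541 in WT saline (interaction 3.66 ± 1.07). Tnf, the inflammatory cytokine, stood at 131, 129 and 225 CPM in ABC-imKO AIBP and 39.2, 11.4 and 112 in ABC-imKO saline, against 46.9 and 49.7 in WT AIBP and 268, 100 and 123 in WT saline. As with Ccl3, neither genotype's groups overlapped, and the interaction of Tnf was 3.34 ± 1.00 (unadjusted p = 0.00476, edgeR).

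Osm, encoding the cytokine oncostatin M, had 81.4, 143 and 116 CPM in the samples labelled ABC-imKO AIBP and 37.6, 15.9 and 106 in ABC-imKO saline, against 34.6 and 23.8 in WT AIBP and 95.1, 79.6 and 66.4 in WT saline (interaction 2.56 ± 0.76). Il1b, the pyrogenic cytokine matured by the inflammasome, had 14.4, 11 and 16.2 CPM in ABC-imKO AIBP and 0.767, 0.543 and 13.9 in ABC-imKO saline, against 4.04 and 5.21 in WT AIBP and 24.1, 24.7 and 22.7 in WT saline. Here ABC-imKO saline 6 lay within its AIBP group while the WT groups stood apart, and the interaction was 3.81 ± 1.76 (unadjusted p = 0.0474, edgeR). Ccl2, the ligand of CCR2, had an interaction of 2.22 ± 0.70. Not each member was arranged this way. Ccl12 stood at 1015, 1337 and 1359 CPM in ABC-imKO AIBP and 1000, 1142 and 1648 in ABC-imKO saline, against 1537 and 952 in WT AIBP and 624, 2565 and 1558 in WT saline (interaction 0.32 ± 0.66). Tgfb1, the cytokine that maintains microglia, had an interaction of -0.02 ± 0.44.

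The receptors and adaptors upstream of these signals gave a smaller count. Of 36 Toll-like receptor pathway genes tested, 4 had a higher and 1 a lower interaction at an unadjusted p under 0.05, against 3.45% and 2.83% of all genes, with a median of 0.08. Among the higher were Nfkbia, the inhibitor of NF-kB that NF-kB itself induces, and Nfkbiz, its nuclear relative. Nfkbia had 1012, 1164 and 2287 CPM in the samples labelled ABC-imKO AIBP and 916, 458 and 1020 in ABC-imKO saline, against 340 and 356 in WT AIBP and 1756, 457 and 665 in WT saline (interaction 2.36 ± 0.86). Its WT AIBP samples lay below all other samples of the 4 groups. Tlr1, a partner of TLR2 in sensing lipopeptides, was the lower one, with 84.7 to 96.9 CPM in ABC-imKO AIBP and 111 to 129 in ABC-imKO saline, against 123 and 132 in WT AIBP and 80.0 to 123 in WT saline (interaction -0.72 ± 0.27).

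**Figure D4:**
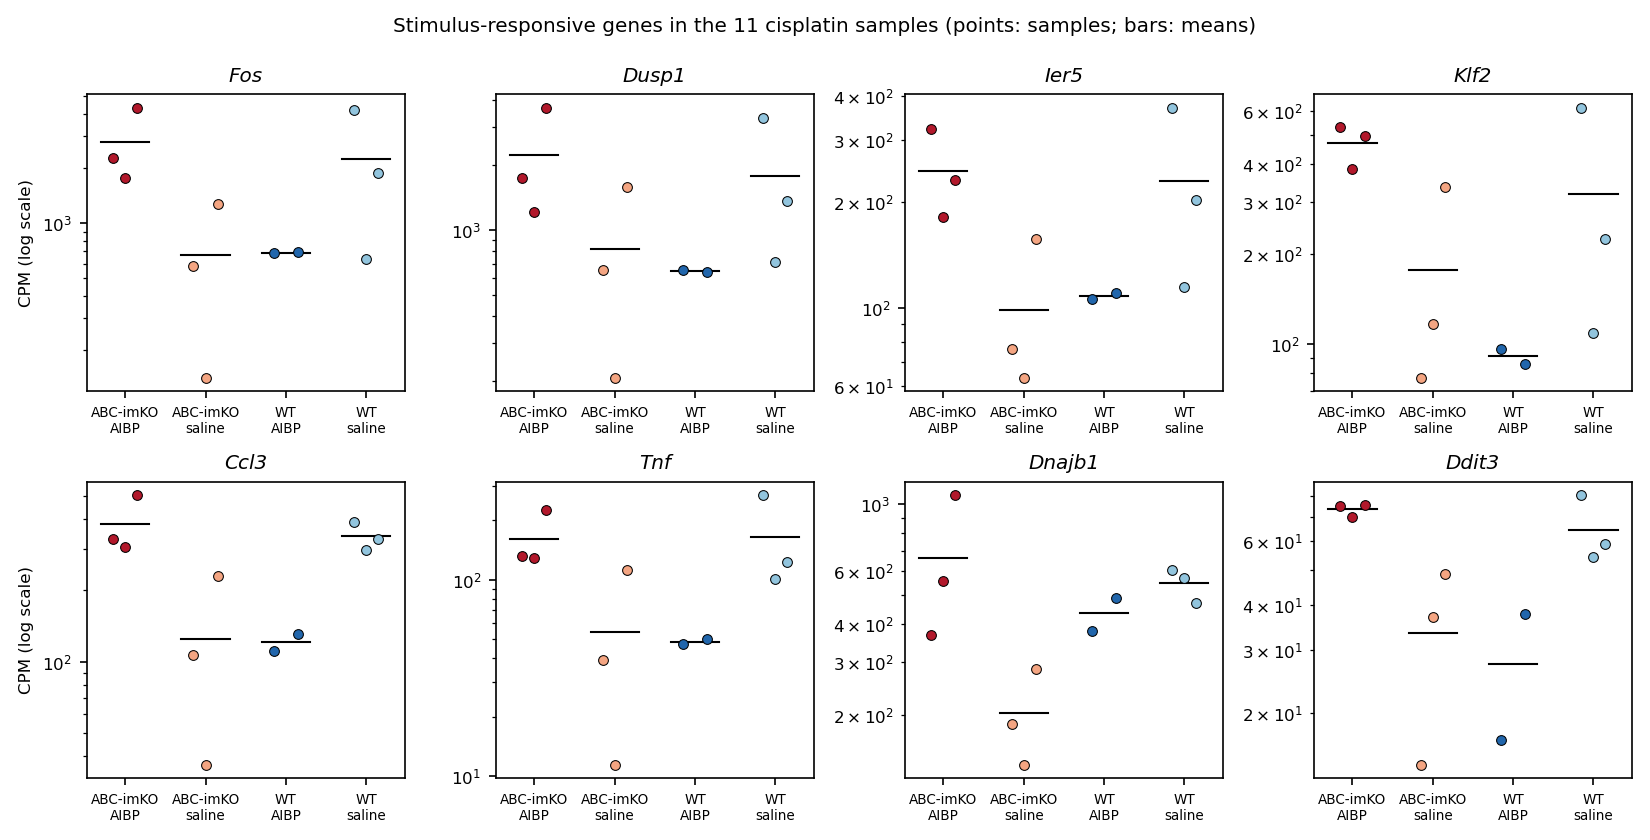
CPM on log axes of 4 immediate early genes (Fos, Dusp1, Ier5, Klf2), the chemokine Ccl3, the cytokine Tnf, the chaperone Dnajb1 and the stress factor Ddit3 in the 11 cisplatin samples, with points for samples and bars for group means. The samples labelled ABC-imKO AIBP lie mostly above ABC-imKO saline, while WT AIBP lies at or below WT saline.

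Chaperone genes had their larger response on the ABC-imKO side, with no member past the adjusted threshold in edgeR and 1, Hsp90aa1, in DESeq2. Of its 17454 genes DESeq2 called 0.573% higher. Of 20 cytosolic heat shock genes, 6 had a higher interaction at an unadjusted p under 0.05 and 0 a lower one, against 3.45% and 2.83% of all genes, with a median of 0.48 (ABC-imKO 0.49, WT 0.04). Hsp90aa1, the inducible HSP90, stood at 306, 319 and 367 CPM in the samples labelled ABC-imKO AIBP and 90.5, 124 and 197 in ABC-imKO saline, against 225 and 263 in WT AIBP and 301, 292 and 326 in WT saline. The interaction was 1.60 ± 0.38 (unadjusted p = 0.000906, adjusted p = 0.774, edgeR). The HSP40 co-chaperone gene Dnajb1 stood at 368, 555 and 1068 CPM in ABC-imKO AIBP and 186, 137 and 284 in ABC-imKO saline, against 379 and 489 in WT AIBP and 602, 568 and 471 in WT saline (interaction 2.05 ± 0.67).

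For both, ABC-imKO AIBP lay above ABC-imKO saline without overlap, and the ABC-imKO saline samples were the 3 lowest of the 11. Hspa1b, an inducible HSP70, had 38.3, 75.9 and 74.6 CPM in the samples labelled ABC-imKO AIBP and 4.22, 8.33 and 16.5 in ABC-imKO saline, against 144 and 191 in WT AIBP and 67.4, 175 and 180 in WT saline (interaction 2.45 ± 0.85). Its near-identical neighbour Hspa1a had an interaction of 2.91 ± 1.05, and how reads were split between the pair is uncertain. The list's median was 0.17 without WT saline 5 and 0.15 without WT saline 5 and 6, which leaves WT saline 4 alone. Without WT AIBP 7 the median was 0.41.

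Of 23 ER stress genes, 3 had a higher interaction at an unadjusted p under 0.05 and 0 a lower one, against 3.45% and 2.83% of all genes, with a median of 0.35. DESeq2 called 2 of them, Atf4 and Ddit3, against 0.573% of its 17454 genes called higher. Atf4, the master factor of the integrated stress response, stood at 201, 135 and 145 CPM in the samples labelled ABC-imKO AIBP and 70.6, 86.0 and 118 in ABC-imKO saline, against 80.3 and 53.3 in WT AIBP and 154, 95 and 122 in WT saline. Neither genotype's AIBP and saline samples overlapped, as in 0.509% of genes at 10 CPM or more in these directions. The interaction of Atf4 was 1.70 ± 0.38 (unadjusted p = 0.000531, adjusted p = 0.774, edgeR). Its target Ddit3, which encodes the pro-apoptotic factor CHOP, stood at 74.8, 69.9 and 75.5 CPM in ABC-imKO AIBP and 14.4, 36.9 and 48.5 in ABC-imKO saline, against 16.9 and 37.8 in WT AIBP and 80.3, 54.2 and 59.0 in WT saline (interaction 2.38 ± 0.59, unadjusted p = 0.00112, edgeR). Herpud1, a factor of ER-associated degradation, had an interaction of 1.06 ± 0.44. The chaperone Hspa5 (BiP), the abundant marker of the unfolded protein response, had 0.95 ± 0.51, and Xbp1, another of its factors, had 0.04 ± 0.27.

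Cholesterol synthesis, which cells raise through the transcription factor SREBP2 when sterol is scarce, had 0 of 25 interactions past the adjusted threshold in edgeR (smallest adjusted p 0.774). DESeq2 called 2, Srebf2 among them, against 0.573% of its 17454 genes called higher. Of the 25 genes, 6 had a higher interaction at an unadjusted p under 0.05 (among them Srebf2, Cyp51, Insig1 and Stard4) and 0 a lower one, against 3.45% and 2.83% of all genes. The list's median was 0.26 (ABC-imKO 0.52, WT 0.12). The summed level of the list was 1022, 1000 and 1065 CPM in the samples labelled ABC-imKO AIBP and 808, 714 and 719 in ABC-imKO saline, against 1125 and 1006 in WT AIBP and 1081, 884 and 1011 in WT saline. The ABC-imKO saline samples were the 3 lowest of the 11. Among the samples left out one at a time, the median was lowest without ABC-imKO saline 5 (0.16) and highest without WT AIBP 7 (0.40), and without technical replicate 3 it was 0.49.

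Srebf2, the gene of SREBP2, stood at 37.6, 69.2 and 40.1 CPM in the samples labelled ABC-imKO AIBP and 8.37, 14.3 and 24.3 in ABC-imKO saline, against 17.6 and 17.3 in WT AIBP and 61.7, 19.4 and 27.2 in WT saline. Its AIBP samples lay above saline in ABC-imKO and below saline in WT, as in 0.509% of genes at 10 CPM or more. The interaction of Srebf2 was 2.69 ± 0.73 (unadjusted p = 0.00228, edgeR). For its target Cyp51 the ABC-imKO saline samples were the 3 lowest of the 11. Cyp51, which encodes the lanosterol demethylase, had 64.1, 74.4 and 75.1 CPM in ABC-imKO AIBP and 21.9, 23.4 and 32.3 in ABC-imKO saline, against 70.8 and 71.8 in WT AIBP and 58.6, 48.7 and 69.4 in WT saline (log2 fold change 1.46 ± 0.28 in ABC-imKO and 0.28 ± 0.30 in WT).

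The reverse side of sterol handling is export under the liver X receptors, which sense oxysterols. Of 18 such genes, 0 had a higher interaction at an unadjusted p under 0.05 and 2 a lower one, Apoe and Scd2, against 3.45% and 2.83% of all genes, with a median of -0.18, and -0.27 over the 17 members with counts in each group. Scd2, a stearoyl-CoA desaturase, stood at 33.9, 32.5 and 31 CPM in the samples labelled ABC-imKO AIBP and 139, 93.0 and 65.8 in ABC-imKO saline, against 28.8 and 17.1 in WT AIBP and 38.2, 22.9 and 32.9 in WT saline (interaction -1.16 ± 0.49, unadjusted p = 0.033, edgeR). As for Apoe, the ABC-imKO saline samples were the high ones and the other 3 groups lay together. Abca1 had an interaction of 0.16 ± 0.41 and Abcg1 of -0.28 ± 0.48, and each took the other sign when certain single samples or technical replicates were left out.

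The 12 genes with the smallest p in each direction, at 10 CPM or more, held further genes of these kinds. None of them was called as an interaction by edgeR. DESeq2 called all 12 on the higher side and 3 on the lower side (Apoe, Tm9sf3 and St7), against 0.779% of its 17454 genes. All were picked by their edgeR p in the same counts, so the DESeq2 calls are no separate support. On the higher side, beside Atf4, Hsp90aa1, Ier5, Ddit3, Cx3cr1, Dusp2, Rhob and Srebf2, they were Zmat1, Zfp324, Top1 and Sertad1. Top1, the DNA topoisomerase, stood at 91.0, 64.6 and 72.6 CPM in the samples labelled ABC-imKO AIBP and 59.6, 59.6 and 68.1 in ABC-imKO saline, against 39.4 and 47.2 in WT AIBP and 83.5, 70.6 and 66.1 in WT saline (interaction 1.05 ± 0.26). Its WT AIBP samples lay below all others of the 4 groups, and its ABC-imKO groups overlapped. Zmat1, a zinc finger gene, lay the other way, at 14.3, 5.53 and 4.99 CPM in ABC-imKO AIBP and 0.568, 1.57 and 1.03 in ABC-imKO saline, against 7.43 and 3.70 in WT AIBP and 15.5, 4.34 and 11.6 in WT saline (interaction 3.89 ± 0.88).

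On the lower side, beside Apoe, were Tm9sf3, St7, Wdr20, Klhl25, Abcd2, Miip, Ubr1, Zbtb38, Smchd1, Zfp825 and Isg20l2. Their interactions ran from -2.30 ± 0.68 for Zfp825 to -0.80 ± 0.24 for Smchd1. Abcd2, a peroxisomal importer of very long chain fatty acids, stood at 82.1, 80.7 and 92.6 CPM in the samples labelled ABC-imKO AIBP and 167, 158 and 117 in ABC-imKO saline, against 91.4 and 142 in WT AIBP and 98.9, 93.5 and 108 in WT saline (interaction -1.01 ± 0.28). Ubr1, a ubiquitin ligase of the N-degron pathway, had 48.7 to 61.9 CPM in ABC-imKO AIBP and 59.3 to 107 in ABC-imKO saline, against 71.9 and 77.0 in WT AIBP and 50.6 to 59.3 in WT saline (interaction -1.14 ± 0.33). Smchd1, a chromatin protein of X inactivation, had 71.8 to 79.8 CPM in ABC-imKO AIBP and 86.0 to 103 in ABC-imKO saline, against 95.5 and 102 in WT AIBP and 68 to 72.4 in WT saline. In Ubr1 as in Smchd1, WT AIBP lay above WT saline while ABC-imKO AIBP lay at or below ABC-imKO saline, with Ubr1 overlapping in ABC-imKO. Non-overlap in both genotypes with ABC-imKO AIBP below and WT AIBP above saline, as in Smchd1, was seen in 57 of the 9042 genes at 10 CPM or more (0.63%), and the reverse, with ABC-imKO AIBP above and WT AIBP below saline, in 46 (0.509%). AIBP lay above saline without overlap in both genotypes for 62 genes (0.686%) and below it in both for 47 (0.52%).

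Lists of microglial state and function had few members at an unadjusted p under 0.05, the share of all genes being 3.45% higher and 2.83% lower. Of 24 homeostatic microglia genes 2 had a higher interaction at an unadjusted p under 0.05, Cx3cr1 and Olfml3, with a list median of 0.03 and responses of 0.20 in both genotypes. Olfml3, an extracellular matrix protein of resting microglia, stood at 1928, 2101 and 3052 CPM in the samples labelled ABC-imKO AIBP and 1052, 1075 and 1657 in ABC-imKO saline, against 4140 and 4490 in WT AIBP and 3393, 3410 and 4108 in WT saline (interaction 0.66 ± 0.29). Of 24 disease-associated microglia genes 1 was higher and 2 lower (median -0.05), of 22 antigen presentation genes 1 was higher and 0 lower (0.04), and of 16 complement genes 1 was higher and 2 lower (-0.10). Among the complement genes, C4b stood at 9.46, 23 and 5.64 CPM in ABC-imKO AIBP and 37.7, 30.4 and 42.2 in ABC-imKO saline, against 11.6 and 10.4 in WT AIBP and 4.02, 9.02 and 1.32 in WT saline (interaction -2.73 ± 0.88). The ABC-imKO saline samples were again the ones apart.

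Lower medians came from interferon-stimulated and lysosomal genes. At an unadjusted p under 0.05, 3.45% of all genes had a higher interaction and 2.83% a lower one. The 1 lower member of each list, 3.12% and 3.57% of its genes, lay near that share. The 32 interferon-stimulated genes had a median of -0.33 with 0 higher and 1 lower (Ifit3, an antiviral RNA-binding protein, -2.18 ± 0.92). The 28 lysosomal genes had a median of -0.30 with 0 higher and 1 lower (Galc, the galactosylceramidase, -1.003 ± 0.45). Over the members with counts in each group the medians were -0.27 (31 interferon-stimulated genes) and -0.31 (27 lysosomal genes). In the lysosomal list 23 of 28 interactions were negative, with a median response of -0.19 in ABC-imKO and 0.09 in WT. The cathepsin Ctsb stood at 3371, 3248 and 4365 CPM in the samples labelled ABC-imKO AIBP and 7184, 4620 and 4276 in ABC-imKO saline, against 6389 and 6120 in WT AIBP and 4618, 6700 and 5852 in WT saline (-0.68 ± 0.32). In contrast, 75 of 81 ribosomal protein genes had a positive interaction of small size, where 10963 of all 20461 genes tested were positive. The list's median was 0.25 (ABC-imKO 0.03, WT -0.21). A higher interaction at an unadjusted p under 0.05 was reached by 2 (2.47%), Rps26 and Rpl10, against 3.45% of all genes. The 76 oxidative phosphorylation genes had a median of 0.01 and the 24 proliferation genes of 0.21, with 0 in either direction for both at an unadjusted p under 0.05.

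**Figure D5:**
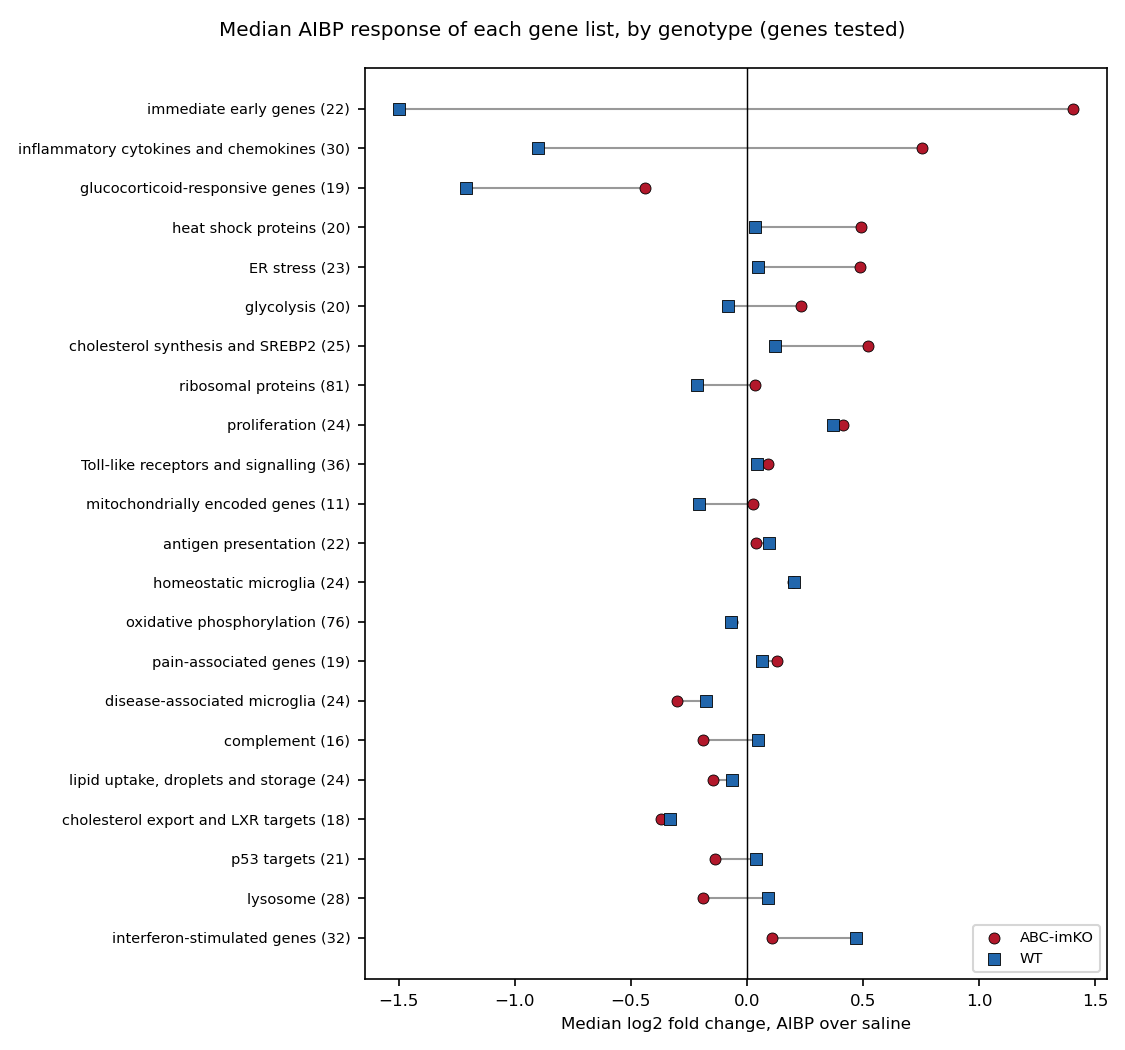
Median AIBP over saline log2 fold change in ABC-imKO (circles) and in WT (squares) of 22 gene lists, with the number of genes tested in parentheses, ordered by the median interaction. Immediate early genes have the widest gap, 1.41 in ABC-imKO and -1.50 in WT, and homeostatic genes have equal medians of 0.20.

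Of the remaining lists, 3 of 19 glucocorticoid-responsive genes had a higher interaction at an unadjusted p under 0.05 (Nfkbia, Sgk1 and Dusp1), against 3.45% of all genes higher and 2.83% lower, with a median of 0.57 and negative responses in both genotypes (ABC-imKO -0.44, WT -1.21). Of 21 p53 targets 3 were higher, Bbc3, Btg2 and Pmaip1, though the list's median was -0.19. Bbc3, which encodes the apoptosis inducer PUMA, stood at 23.1, 33.7 and 37.6 CPM in the samples labelled ABC-imKO AIBP and 17.5, 12 and 22.7 in ABC-imKO saline, against 14.9 and 13.4 in WT AIBP and 42.4, 14 and 30.3 in WT saline (interaction 1.88 ± 0.54). Lipid uptake and storage genes had 1 higher and 0 lower of 24 (median -0.12), and 1 of 20 glycolysis genes was higher, the regulator Pfkfb3 (1.11 ± 0.39). Pain-associated genes had 3 higher of 19, which were Cx3cr1, Tnf and Il1b. Among 11 mitochondrially encoded genes 1 was lower, mt-Cytb (-0.62 ± 0.27).

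Markers of other cells differed in level between the groups. The 12 monocyte markers summed to 293 to 841 CPM in the samples labelled ABC-imKO AIBP and 802 to 1271 in ABC-imKO saline, against 208 to 307 in WT AIBP and 252 to 1129 in WT saline, where WT saline 4 was the low one. Most of that sum was Fn1, which microglia can also express. The 10 border macrophage markers summed to 2.56 to 74.6 CPM in ABC-imKO AIBP and 21.6 to 35.6 in ABC-imKO saline, against 5.42 and 30.1 in WT AIBP and 1.33 to 151 in WT saline, with Lyve1 and Cd209b at 0 in all 4 groups. The monocyte list had a positive interaction in 10 of 12 markers (median 2.05) and a negative WT response in 12 of 12 (median -2.77), with a median of -0.44 in ABC-imKO. The 6 border macrophage markers tested had a median interaction of 2.34, from 0.51 in ABC-imKO and -2.64 in WT. Both medians lay above that of the cytokine list. At an unadjusted p under 0.05 a higher interaction was reached by 0 of the 12 and by 2 of the 6, Pf4 and Folr2, against 3.45% of all genes, and several of these markers were at or near 0 in a group. DESeq2 called 1 of the border macrophage markers, Pf4, against 0.573% of its 17454 genes called higher. Neutrophil markers were almost wholly Csf3r, with Ly6g, Retnlg and S100a9 at 0 in the 4 groups. Fewer cells of a type and less RNA per cell cannot be told apart in such sorted bulk samples. The part of these markers in the interactions was not tested beyond the values without WT saline 5 and 6, which rest on WT saline 4 alone.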

How the data were processed

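Resident microglia were sorted from lumbar spinal cord and their messenger RNA was amplified by PCR, per the labels' protocols. The authors deposited raw read counts per gene for 6 runs of each sample (3 technical replicates on 2 lanes), and these counts were summed per sample. The submitters' processing notes name bcl2fastq, FastQC 0.11.17, MultiQC 1.7, STAR 2.6.0a, DESeq2 and GRCm38 and leave the counting tool and its strand setting not stated. The authors' normalized table was not used. Of 53715 features, 53620 were named from GENCODE M21. All 17 samples entered 1 fit by group (R 4.3.3, edgeR 4.0.16, TMM scaling, low-count filter, quasi-likelihood test, Benjamini-Hochberg adjustment over 20461 genes), with DESeq2 1.42.0 and limma 3.58.1 as alternatives. The fit was checked on simulated data for the direction of large interactions, with the spread between samples capped. That check does not bear on how many interactions could be called here. Values are CPM, fold changes are log2 ± SE, and the biological coefficient of variation was 0.922. Amplified reads are not independent molecules, so depth limits counting error only. Counts of 2 technical replicates of a sample differed by a median chi-square per degree of freedom of 111, against 1.28 for 2 lanes of a library. For 2 samples of a group it was 207, but summed samples hold more counts, so 111 and 207 are not directly comparable.

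The members and lists were chosen with earlier results of these data known. Named genes were Abca1, Abcg1, Apoe, Cx3cr1 and Naxe, the 12 of smallest interaction p in each direction at 10 CPM or more, up to 3 of smallest p per list, and the most abundant marker per cell type. Other members of the lists named in the text were chosen after their values were seen. Alternatives covered scaling, test, filter, samples in the fit, samples and technical replicates left out, and blocking. Some genes are not reported here.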

Additional observations from a re-analysis of the deposited data

How the results depend on the processing

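The interaction, with 0 genes called, gave 136 in DESeq2, 1 with no filter on low counts (Apoe, adjusted p 0.0292 in edgeR) and 0 in each fit that left out a sample or a technical replicate. AIBP against saline within ABC-imKO, with 2 called, gave 185 in DESeq2, 5 in limma-voom, 6 with no filter, 0 in the 11 cisplatin samples alone, and 1 to 15 when a sample or technical replicate was left out, 15 being without ABC-imKO saline 6. The WT response, with 0 called, gave 104 in DESeq2, 4 in limma-voom and 0 to 2 with a sample or technical replicate left out, 2 being without WT saline 4. The cause of these differences was not tested. Whether sample numbers pair the samples could not be settled. In saline, deviations from the group mean correlated at 0.043, 0.160 and -0.053 for same-numbered samples and at -0.167 to 0.096 for the others. In AIBP, same-numbered values were -0.035 and -0.031. Deviations of the 2 WT AIBP samples mirror each other, so these values cannot show pairing. With the sample number as a replicate block the interaction gave 0 calls, and the median of the cholesterol synthesis list was 0.07. A replicate block on technical replicates taken as libraries gave 103 interactions and 136 ABC-imKO calls, since libraries of 1 sample then count as separate samples.

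Of 2115 interaction values of single named genes under the alternatives, 2034 kept their direction and stayed uncalled, and 35 took the other sign. The other 46 passed the threshold only there, 26 with technical replicates as libraries, 19 in DESeq2 and 1 with no filter. As 0 interactions were called in the main fit, none could lose a call, so these counts do not measure how firm a call is. With a sample or technical replicate left out, the interaction ran over -0.19 to 0.71 for Abca1, -0.61 to 0.18 for Abcg1, -0.16 to 0.74 for Fn1, -0.21 to 4.91 for F13a1, -0.22 to 0.17 for Csf3r, -0.14 to 1.18 for Mbp, -9.11 to 6.64 for Cspg4 and -0.84 to 2.24 for Pecam1. Without WT saline 5 and 6 it was -0.69 for Fabp5, -1.95 for Cfp, -0.84 for Fn1, -5.59 for F13a1 and 0.32 for Csf3r. With the sample number as a replicate block it was 0.026 for Abcg1, -0.27 for Fn1, -1.02 for F13a1 and 0.089 for Csf3r, and with technical replicates as a block it was 2.14 for Cspg4. F13a1 was -0.97 in limma-voom and Csf3r 0.0081 under a stricter filter. A group of 2 (WT AIBP) becomes 1 sample when WT AIBP 7 or 9 is left out, and that sample is then assumed to vary like the other groups. The median standard error of an interaction, 0.48, limits which differences could be called.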
